A study of Mus musculus with 6 samples.

Results

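Astrocytes promote the formation and maturation of synapses partly through proteins that they release. Followed here were 9 genes for such proteins and for released proteins related to them, in cultured mouse cortical astrocytes expressing BRAF KE. They are called synaptogenic for short, although Sparc opposes synapse formation and the sulfatases edit heparan sulfate. The genes were taken by name from the table of normalized counts: the thrombospondins Thbs1 and Thbs2, the matricellular genes Sparc and Sparcl1, the glypicans Gpc4 and Gpc6, the BMP antagonist Chrdl1, and the heparan sulfate–editing sulfatases Sulf1 and Sulf2. They are 9 of the 55357 genes listed, and all 9 had a mean high enough to be tested. RNA-seq compared 3 cultures transfected with plasmid DNA encoding FLAG-tagged BRAF K499E under the CMV promoter (KE) with 3 nontransfected cultures (NT). All cultures came from cortices of C57BL/6 mouse embryos on embryonic day 18, as the study describes its primary astrocytes, and RNA was taken 48 hours after transfection. The NT cultures received no plasmid, so that the effect of transfection and that of BRAF KE cannot be told apart. Nothing states that the 3 cultures of a group were prepared separately, so p-values measure only the spread between these samples.

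Thrombospondins are large secreted glycoproteins that induce structurally complete but electrically silent synapses by binding the calcium channel subunit encoded by Cacna2d1 on neurons. Sparcl1, also called hevin, bridges neurexin and neuroligin across the synaptic cleft, and Sparc opposes the synaptogenic action of hevin. Glypicans are heparan sulfate proteoglycans that are shed from the astrocyte surface and recruit AMPA receptors, while Chrdl1 brings in the calcium-impermeable AMPA receptors of mature synapses. Sulf1 and Sulf2 are secreted enzymes that remove sulfate groups from heparan sulfate chains, including those that glypicans carry. RNA was the only measurement used here, and neither the released proteins nor synapses were measured.

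The 9 genes did not move as a group. In BRAF KE–transfected astrocytes, Thbs2, Sparcl1 and Sulf2 were higher, Sulf1, Thbs1 and Chrdl1 were lower, and Sparc, Gpc4 and Gpc6 were not called. The call rests on limma with an adjusted p-value under 0.05, with Benjamini-Hochberg adjustment over the 15280 genes whose mean normalized count was at least 10. The 6 called genes of 9 compare with 51.3% of all tested genes called in this comparison, the 3 higher genes with 25.3% called higher, and the 3 lower genes with 26.0% called lower. In 6 of the 9 genes, the ranges of KE and NT were separate, as they were in 59.9% of all tested genes. The median log2FC of the 9 genes was -0.04, beside a median of 0.00 over all tested genes. A log2FC here is the difference, KE minus NT, of the mean log2 of the normalized count plus 1, and a level is the normalized count itself.

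**Figure D1:**
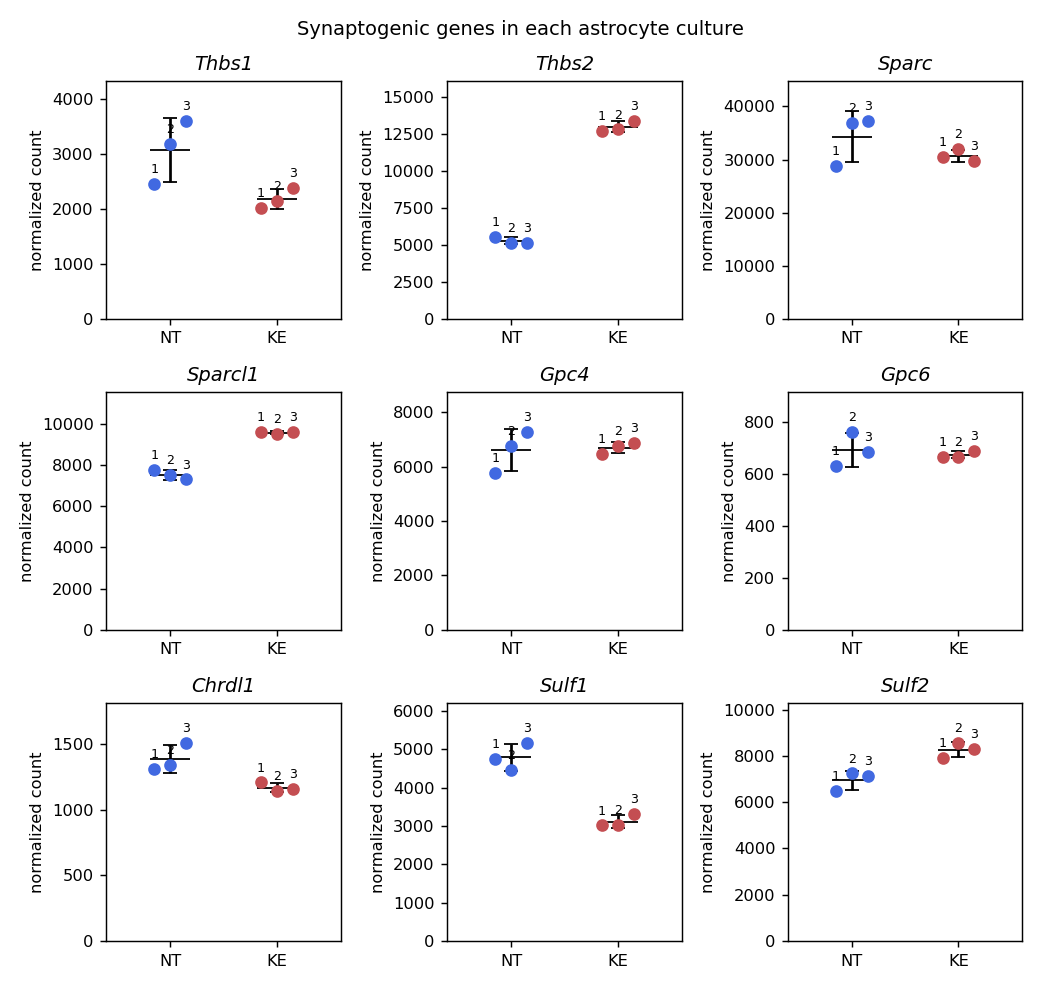
Normalized count (linear axis from 0) of each of the 9 synaptogenic genes in the 3 NT cultures (blue) and the 3 KE cultures (red), with the replicate number above each point. Black dashes and bars are the group mean and SD. Thbs2 shows the widest gap, from 5549 at the highest in NT to 12737 at the lowest in KE, while Sparc, Gpc4 and Gpc6 overlap.

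The transfected gene, Braf, was 36979 ± 3464 (SD, n = 3) in KE, against 894 ± 73.1 (SD, n = 3) in NT, which matches the labels. Sequencing depth, which could only be approximated from the steps of low values, was 24500000 to 34100000 reads per culture, with KE replicate 2 the shallowest. The cultures carried high levels of astrocyte markers such as Slc1a3, Gfap and Aldh1l1, although S100b was low, between 11.8 and 31.5 in every culture. The counts of marker genes called stand beside 25.3% of all tested genes called higher and 26.0% called lower. Of 10 astrocyte markers, 6 were higher and 2 lower in KE (5 to 6 and 1 to 2 over the settings tried), with a median log2FC of 0.33, and their summed level was 109516 to 114729 in NT and 150288 to 152751 in KE. The reactive astrocyte gene Gfap (log2FC 0.87) and the glutamate transporter Slc1a2 (0.85) had the largest rises. Of the called falls, that of the connexin gene Gja1 (-0.46) was larger than that of Fgfr3 (-0.23), whose call was lost without the variance trend and without KE replicate 1, KE replicate 3, NT replicate 2 or NT replicate 3 (adjusted p = 0.093, 0.15, 0.064, 0.058 and 0.14). All 12 microglia and macrophage markers were lower in KE, with a median log2FC of -3.28 and a summed level that went from between 35461 and 41667 in NT to between 3292 and 5068 in KE. Itgam (log2FC -4.07) and Cx3cr1 (-3.97) had the largest falls, and C1qa had the highest mean over all 6 cultures, with group means of 6984 in NT and 829 in KE. In bulk RNA, fewer cells of a type and less RNA per cell cannot be told apart, and the part of this shift in the results for the secreted genes was not tested. All 6 tested oligodendrocyte lineage markers were also called lower, 4 to 6 over the settings tried (median log2FC -0.65), with the largest falls in Mbp (-1.89) and Pdgfra (-0.87). Their summed level was 7636 to 9013 in KE and 12135 to 12691 in NT. Most of this sum was Olig2 (log2FC -0.55), the gene of highest mean, with 6094 in KE and 8927 in NT. Of 8 tested fibroblast and vascular markers, 3 were higher and 3 lower (1 to 3 in each direction over the settings tried), with summed levels of 2305 to 2914 in NT and 2503 to 2629 in KE, and Rgs5 (0.79) and Lum (0.39) had the largest called rises, Pecam1 (-0.86) and Dcn (-0.65) the largest called falls, and Col3a1 (-0.59) the highest mean. The calls of Lum, Pecam1 and Col3a1 were lost under 5, 3 and 4 of 14 alternatives, with adjusted p-values of 0.055 to 0.086, 0.057 to 0.072 and 0.073 to 0.089. Of the endothelial markers, Cldn5 and Cdh5 were at or near 0 while Pecam1 was low, between 16.8 and 36.3 in every culture.

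Among the thrombospondins, Thbs2 (ENSMUSG00000023885) rose and Thbs1 (ENSMUSG00000040152) fell. The Thbs2 gene occupies chr17:14885761-14914528 (GRCm39, minus strand) and its canonical transcript has 22 exons. KE replicates 1 to 3 held 12737, 12838 and 13430.0 normalized counts of it, and NT replicates 1 to 3 held 5549, 5140.1 and 5138. Every KE culture was thus above every NT culture, and the cultures of each group lay close together. Mean levels were thus 2.46-fold apart, at 13002 ± 374 (SD, n = 3) with BRAF KE and 5276 ± 236 (SD, n = 3) without it. Its log2FC was 1.30 with an SE of 0.06, for which limma gave an adjusted p of 2.3e-08, and 7.17% of all tested genes had a log2FC at least as far from 0.

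The Thbs1 gene (chr2:117941974-117957616, plus strand) also has 22 exons. Replicates 1 to 3 held 2020.2, 2145 and 2383 normalized counts in KE and 2459, 3182 and 3613 in NT. The groups did not overlap, although NT replicate 1 was only slightly above the highest KE culture. On average this was 2183 ± 184 (SD, n = 3) against 3085 ± 583 (SD, n = 3). The log2FC of Thbs1 was -0.48 with an SE of 0.12, and its adjusted p from limma was 0.0060. Thbs1 is also made by macrophages, whose markers were lower in KE as given above, and the part of those cells in its fall was not tested.

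The 2 thrombospondins moved in opposite directions, and the make-up of the family differed between groups. Per kb of exon, Thbs2 made up 82.2% ± 0.824 (SD, n = 3) of the summed Thbs1 and Thbs2 level in KE and 57.1% ± 5.77 (SD, n = 3) in NT. The lowest share in KE was 81.3% and the highest in NT was 63.5%. The summed level of both genes per kb was 1892 ± 72.9 (SD, n = 3) in KE, against 1108 ± 64.8 (SD, n = 3) in NT. With the other members Thbs3, Thbs4 and Comp added, Thbs2 had 72.0% of the family level in KE and 47.5% in NT, Thbs1 15.6% and 35.6%, and Thbs3 12.3% and 16.3%. Thbs3 was itself higher in KE, at 1298 ± 91.3 (SD, n = 3) against 1061 ± 67.3 (SD, n = 3), a log2FC of 0.29 (adjusted p = 0.0088 from limma). Thbs4 was low and lower in KE, with means of 4.91 and 19.5 normalized counts, and Comp was below the mean needed for the test.

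**Figure D2:**
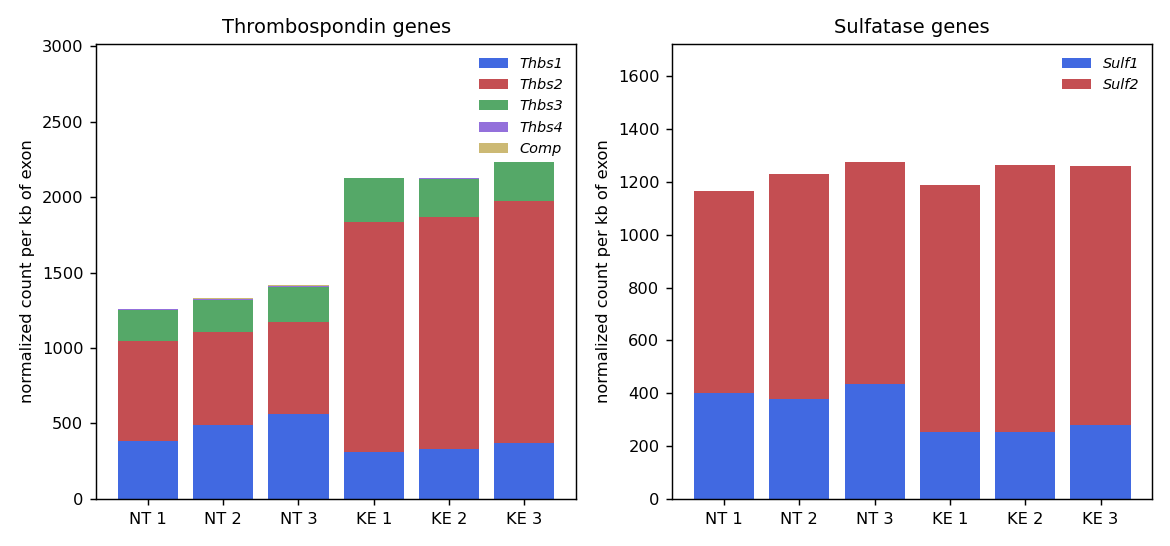
Stacked bars, from 0, of the normalized count per kb of exon of the thrombospondin genes (left) and the sulfatase genes (right) in each of the 6 cultures. The thrombospondin bars are taller in KE because of Thbs2, while the summed sulfatase level, between 1165 and 1276 in NT and between 1189 and 1264 in KE, overlaps between groups and its Sulf1 portion is smaller in KE.

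The windows around the start sites of Thbs2 and Sulf2 are shown because these are the genes that rose and have an entry in the RefSeq promoter table, which also holds Sparc and Gpc4. Each run covers 250 bases before to 50 bases after a start site on GRCm38.p6, is read 5′ to 3′ on the gene's strand, and carries in capitals the letters CCAAT and TATAAA on either strand. Sulf2 has 2 start sites in the table. The runs are at chr17:14694213-14694512 for Thbs2, and at chr2:166155634-166155933 and chr2:166155236-166155535 for the upstream and downstream start of Sulf2, all on the minus strand.
Thbs2: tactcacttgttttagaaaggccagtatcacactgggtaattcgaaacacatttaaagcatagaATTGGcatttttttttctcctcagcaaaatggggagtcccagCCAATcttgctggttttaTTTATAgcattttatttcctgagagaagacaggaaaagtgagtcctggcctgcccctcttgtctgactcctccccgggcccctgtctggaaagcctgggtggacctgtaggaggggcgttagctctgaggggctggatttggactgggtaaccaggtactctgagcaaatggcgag
Sulf2 upstream: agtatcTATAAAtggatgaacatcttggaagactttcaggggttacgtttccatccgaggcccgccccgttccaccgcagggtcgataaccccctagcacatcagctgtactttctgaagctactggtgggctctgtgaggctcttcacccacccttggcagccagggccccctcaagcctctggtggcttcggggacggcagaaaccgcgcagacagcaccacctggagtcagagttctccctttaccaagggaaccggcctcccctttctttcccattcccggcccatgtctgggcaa
Sulf2 downstream: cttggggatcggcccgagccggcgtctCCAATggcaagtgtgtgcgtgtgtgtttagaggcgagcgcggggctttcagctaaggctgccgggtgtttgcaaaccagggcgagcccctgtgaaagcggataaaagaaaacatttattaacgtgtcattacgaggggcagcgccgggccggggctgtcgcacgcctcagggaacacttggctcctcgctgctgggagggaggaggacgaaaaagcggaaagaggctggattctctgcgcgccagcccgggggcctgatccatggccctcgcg
The CCAAT letters occur in the Thbs2 window at bases 107 to 111 on the gene's strand and 65 to 69 on the other strand, and in the downstream Sulf2 window at bases 28 to 32. They are common, being found in 37.4% of the 32851 windows of the table. The TATAAA letters occur at bases 125 to 130 of the Thbs2 window, on the other strand, and at bases 7 to 12 of the upstream Sulf2 window, and in 13.6% of all windows. The GC box GGGCGG (35.7% of all windows) was found on the other strand in the upstream Sulf2 window, where it does not overlap the marked letters, and in that of Gpc4. The AP-1 letters TGANTCA (7.81% of all windows) and the CArG box (1.63%) were found in none of the 5 windows of these 4 genes. A match describes letters and is not evidence of binding.

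In the SPARC family, Sparcl1 (ENSMUSG00000029309) rose, while Sparc (ENSMUSG00000018593), the most abundant of the 9 genes, was not called. The Sparcl1 gene occupies chr5:104226288-104262065 (minus strand). Replicates 1 to 3 held 9595, 9476 and 9599 normalized counts in KE, all above the 7755, 7498 and 7287 of NT. The 3 KE cultures were the tightest set of all 9 genes, with an SD of 0.733% of the mean. From 7513 ± 235 (SD, n = 3) in NT the mean went to 9557 ± 70.1 (SD, n = 3) in KE. That is a log2FC of 0.35 with an SE of 0.05 and an adjusted p of 0.00020 from limma. This rise is close to the median log2FC of 0.33 of the astrocyte markers, which ran widely, from -0.60 to 0.87. Whether the rise of Sparcl1 is tied to that of these markers was not tested.

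The Sparc gene occupies chr11:55285317-55314067 (minus strand). Replicates 1 to 3 held 30496, 31965 and 29766 normalized counts in KE and 28802, 36855 and 37327 in NT. NT replicate 1 lay below all KE cultures and the other NT cultures lay above them. The log2FC was -0.15, with a 95% confidence interval from -0.35 to 0.05 (adjusted p = 0.20 from limma). The result turned on NT replicate 1: without it, the log2FC of Sparc was -0.27 with an adjusted p of 0.0062 from limma. NT replicate 1 was the lowest NT culture in 6 of the 9 genes, and in 35.8% of all tested genes.

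Neither glypican was called. Gpc4 (ENSMUSG00000031119, chrX:51139255-51254262, minus strand) was 6482, 6753 and 6863 normalized counts in KE and 5775, 6758 and 7285 in NT. The KE values lay within the range of the NT values. Its log2FC was 0.03, and the 95% confidence interval from -0.15 to 0.20 bounds the change in either direction. Gpc6 (ENSMUSG00000058571, chr14:117162727-118216940, plus strand) was 664, 665 and 689 in KE and 629.9, 761 and 685 in NT. The KE values again lay within the NT range, and the log2FC of Gpc6 was -0.04, with an interval from -0.23 to 0.15. The adjusted p-values from limma were 0.80 for Gpc4 and 0.75 for Gpc6, which do not show that the levels were equal.

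Gpc4 was the main glypican in these cultures, with 78.2% ± 0.963 (SD, n = 3) of the level per kb of Gpc1 to Gpc6 in KE and 75.1% ± 1.84 (SD, n = 3) in NT. Among the other glypicans, Gpc3 fell from 129.7 ± 5.07 (SD, n = 3) to 57.5 ± 7.02 (SD, n = 3), a log2FC of -1.17 (adjusted p = 0.00015 from limma). Gpc5 rose from 9.93 to 29.2, but both levels are low. Gpc1 had a log2FC of -0.23 (adjusted p = 0.023), a call that was lost without KE replicate 1, KE replicate 3 or NT replicate 3 (adjusted p = 0.098, 0.057 and 0.077), and without the variance trend (adjusted p = 0.066).

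Chrdl1 (ENSMUSG00000031283, chrX:142068670-142177258, minus strand) was lower in KE. Replicates 1 to 3 held 1209.8, 1143 and 1160.2 normalized counts in KE and 1312, 1345 and 1512 in NT. The groups did not overlap, and NT replicate 3 was the highest culture. With a log2FC of -0.24 (SE 0.07) and an adjusted p of 0.016 from limma, it had the smallest change of the 6 called genes on the log2 scale. Without NT replicate 3, the log2FC of Chrdl1 was -0.18 and the call was lost (adjusted p = 0.072). The related antagonist Chrd had a log2FC of -0.17 and was not called, and Chrdl2 was near 0.

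The sulfatases moved in opposite directions. Sulf1 (ENSMUSG00000016918, chr1:12762501-12931416, plus strand) was 3013, 3017 and 3319.8 normalized counts in KE and 4745, 4461 and 5169 in NT. All KE cultures were below all NT cultures. Its log2FC of -0.62 (SE 0.07), with an adjusted p of 2.4e-05 from limma, was the largest fall of the 9 genes. Sulf2 (ENSMUSG00000006800, chr2:165915009-165998118, minus strand) was 7926, 8563 and 8316 normalized counts in KE and 6481, 7240.2 and 7121 in NT. All KE cultures were above all NT cultures. Its log2FC was 0.25 (SE 0.06) with an adjusted p of 0.0050 from limma. That is below the median of 0.33 of the astrocyte markers and within their range of -0.60 to 0.87, and a link to them was not tested.

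The summed level of both sulfatases per kb of exon was 1238 ± 42.5 (SD, n = 3) in KE, against 1224 ± 55.9 (SD, n = 3) in NT, with overlapping values. Sulf2 accounted for 78.7% ± 1.05 (SD, n = 3) of it in KE and 66.9% ± 2.13 (SD, n = 3) in NT, from 77.8% at the lowest in KE to 69.4% at the highest in NT. Sumf1, the enzyme that activates sulfatases, was also higher in KE, at 2534 ± 27.9 (SD, n = 3) against 1719.99 ± 47.2 (SD, n = 3), a log2FC of 0.56 (adjusted p = 1.1e-05 from limma).

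**Figure D3:**
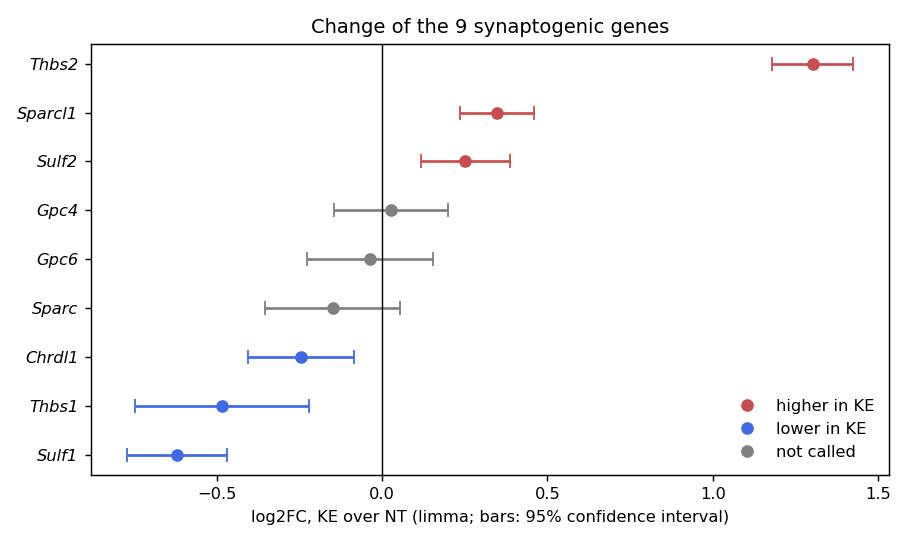
log2FC of the 9 synaptogenic genes, KE over NT, from limma, with 95% confidence intervals (red, higher in KE; blue, lower in KE; grey, not called). Thbs2 stands alone at 1.30, the other called genes lie between -0.62 and 0.35, and the intervals of Gpc4, Gpc6 and Sparc include 0.

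Whether related genes responded differently was tested on the log2 ratio of the 2 genes within each culture, for 4 pairs. With 3 cultures against 3, the exact permutation test (two-sided) cannot give a p below 0.1, which becomes 0.133 after adjustment over the 4 pairs. In replicates 1 to 3, the log2 ratio of Thbs2 to Thbs1 was 2.66, 2.58 and 2.49 in KE and 1.17, 0.69 and 0.51 in NT, a difference of 1.79 (standard error 0.20). That of Sulf2 to Sulf1 was 1.40, 1.50 and 1.32 in KE and 0.45, 0.70 and 0.46 in NT, a difference of 0.87 (standard error 0.10). That of Sparcl1 to Sparc was -1.67, -1.75 and -1.63 in KE and -1.89, -2.30 and -2.36 in NT, a difference of 0.50 (standard error 0.15). In these 3 pairs, KE and NT did not overlap and the exact p was 0.1, the smallest the design allows. The Gpc6 to Gpc4 ratio overlapped, with a difference of -0.06 (standard error 0.08, exact permutation p = 0.5).

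Levels of different genes were compared per kb of exon. In NT, the order from high to low was Sparc (8051), Gpc4 (1217), Sparcl1 (1004), Sulf2 (819), Thbs2 (631), Thbs1 (478), Sulf1 (405), Chrdl1 (205) and Gpc6 (73.5). The ranges of neighbours in this order over the 3 NT cultures did not overlap, except those of Thbs1 and Sulf1. The lowest Gpc4 value and the highest Sparcl1 value lay close together, at 1064 and 1036. In KE, Thbs2 (1555) moved from the fifth to the second place, above Sparcl1 (1277), Gpc4 (1234) and Sulf2 (974). Sparcl1 and Gpc4 were then only 1.03-fold apart, although their ranges did not overlap. Sparc remained first (7210 per kb) and Gpc6 last (71.5 per kb), 101-fold apart in KE and 109-fold in NT.

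The genes with the profile most like that of Thbs2 over the 6 cultures, among 12071 others with a mean of at least 100, were Ptgr1, Disp2 and Dnajb9. Likeness was the root-mean-square distance between log2 profiles centred on their own mean, and these distances were 0.04, 0.05 and 0.05. For Sulf1, the member with the largest fall, they were Dck, Fzd3 and Bend4, at 0.03, 0.03 and 0.04. With 2 groups of 3 cultures, such a profile is mostly the size of the KE to NT difference.

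Genes around the 9 were then compared as lists, whose counts stand beside 51.3% of all tested genes called, 25.3% higher and 26.0% lower. Among 15 receptors and binding partners, 14 were tested, of which 2 were higher, 4 were lower and 8 were not called, with a median log2FC of -0.02. With 42.9% called, this list lay below the share of all tested genes. Cacna2d1, the thrombospondin receptor in synapse formation, was not called, with 866 ± 129.8 (SD, n = 3) in KE, against 801 ± 55.1 (SD, n = 3) in NT. Cd47, another thrombospondin receptor, rose from 2572 ± 169 (SD, n = 3) to 5309 ± 348 (SD, n = 3), a log2FC of 1.05 (adjusted p = 4.5e-07 from limma). Nlgn1, a partner of hevin, had a log2FC of 0.32 (adjusted p = 0.016), but the call was lost without KE replicate 1, KE replicate 3 or NT replicate 2 (adjusted p = 0.056, 0.068 and 0.059). The largest falls were those of Cd36, a thrombospondin receptor and macrophage scavenger receptor (log2FC -3.25), and Itgb3 (-0.94). The receptor tyrosine phosphatases Ptprs and Ptprf, of the family that binds glypicans, were not called, while Ptprd had a log2FC of -0.39. Lrp1, an endocytic receptor with the highest mean of the list, had a log2FC of -0.04.

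Of 18 genes for heparan sulfate synthesis, a list that also holds the sulfatase activator Sumf1, 6 were higher, 6 lower and 6 not called. The median log2FC was -0.06, and 66.7% were called, beside 51.3% of all tested genes. Besides Sumf1, the largest rise was that of B3gat3, which completes the linker on the core protein (log2FC 0.49). The largest falls were those of Hs3st3b1, a sulfotransferase that modifies finished chains, from 1404 ± 120.5 (SD, n = 3) to 707 ± 42.8 (SD, n = 3) with a log2FC of -0.99, and of Xylt2, which starts the linker (-0.57). Ndst1, the gene of highest mean, had a log2FC of -0.10 and was not called. Across the settings tried, 4 to 6 genes of this list were higher and 5 to 6 lower.

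Of 15 relatives of the thrombospondins, SPARC, glypicans and chordin, 12 were tested, with 3 higher, 6 lower and 3 not called (median log2FC -0.20). Thus 75% of those tested were called, beside 51.3% of all tested genes. The largest rises were those of Spock1 (log2FC 2.30), a SPARC-related proteoglycan that went from 15.8 to 78.3, and Gpc5 (1.60). The largest falls were those of Thbs4 (-1.85) and Smoc2 (-1.34), and all 4 genes had low levels. Fstl1, with the highest mean, had a log2FC of -0.11.

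Of 11 other genes through which astrocytes act on synapses, 7 were called higher and 4 lower, with a median log2FC of 0.31. Beside these, 25.3% of all tested genes were called higher and 26.0% lower. This list, like the others, was chosen with earlier results of these data known. The call of Tgfb2, the smallest rise (log2FC 0.23, adjusted p = 0.029 from limma), was lost under 6 of 14 alternatives, with adjusted p between 0.052 and 0.10. Ptx3, a pentraxin that astrocytes release, rose from 5882 ± 300.3 (SD, n = 3) to 10538 ± 246 (SD, n = 3), a log2FC of 0.84 (adjusted p = 4.9e-07 from limma). Nlgn2, an adhesion protein, had a log2FC of 0.50. The largest falls were those of Tnf (log2FC -3.60) and Tgfb1 (-2.01), cytokines that microglia also produce, and they moved with the microglia and macrophage markers. Their fall was not separated from that of the markers. Of 7 neuron markers, 5 were tested, and Stmn2 (log2FC -0.58) and Map2 (-0.51), the latter with the highest mean, were lower in KE. Snap25 (-0.77), Syt1 (0.50) and the inhibitory neuron marker Gad1 (0.50) were not called, although each was called under 1 or 2 of the alternatives. Gad1 was between 216.7 and 523 normalized counts in every culture, whereas Rbfox3 and Slc17a7 were at most 8.73 and 15.7. The summed level of the neuron markers was 5847 to 6349 in KE and 8078 to 8811 in NT. Most of this sum was Map2, with means of 4965 in KE and 7077 in NT, so it mainly follows that gene.

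**Figure D4:**
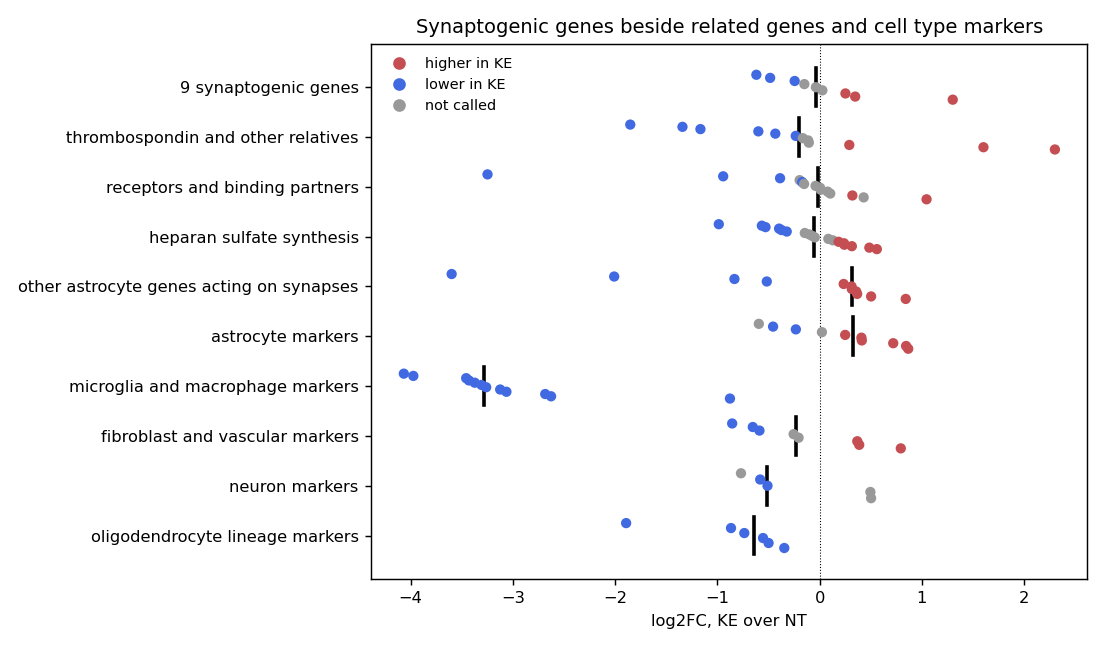
log2FC (KE over NT, limma) of the 9 synaptogenic genes, of 4 lists of related genes and of 5 lists of cell type markers, 1 point per tested gene (red, higher in KE; blue, lower in KE; grey, not called), with the list's median as a black line. The synaptogenic genes centre near 0 with Thbs2 apart at 1.30, while the microglia and macrophage markers centre at -3.28.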

How the data were processed

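mRNA-seq of 3 KE and 3 NT cultures was used, with groups and replicate numbers from the labels and no culture left out. The authors deposited 1 signal per gene and culture, namely gene counts after division by DESeq2 size factors. Per the study's methods, reads were trimmed with TrimGalore, aligned with STAR to GRCm39 and quantified with Salmon. The submitters' processing notes name GRCh38 instead, but the identifiers are those of mouse genes, and 54749 of 55357 were found in Gencode vM39 on GRCm39, from which coordinates and exon lengths (union over transcripts) were taken. The methods mention adjusting for batches without naming them. Normalization removes depth, and whole reads could not be recovered, since only 74.7% to 77.6% of low values came within 0.1 of whole numbers of reads, so no count test was run, and precision rests on the spread between cultures. Per-kb levels ignore which transcripts were used.

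The 15280 genes with a mean of at least 10 were tested with limma 3.58.1 (R 4.3.3), on log2 values with a pseudocount of 1, with a variance trend and no covariate besides group. The tests are two-sided. The fit was tested on simulated data before use. There it recovered 48.5%, 76.1% and 97.0% of changes with an absolute log2FC of 0.5, 1 and 2, with 3 false calls. Small changes can thus be missed. Far fewer genes were changed in the simulation than were called here, so these rates may not carry over. Ratios of related genes were tested by exact permutation, with Python 3.11.15. Named from each list were, among called genes, the 2 largest rises and the 2 largest falls, and the gene of highest mean over the 6 cultures. Other list genes were named after their values were seen. The members and lists were chosen with earlier results of these data known. Alternatives were other pseudocounts (0.5 and 5), no filter or a mean of at least 50, quantile or 75th percentile scaling, no variance trend, the replicate number as a block, and leaving out each culture. Promoter windows are from RefSeq on GRCm38.p6. The protein sequences are not used here.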

Additional observations from a re-analysis of the deposited data

How the results depend on the processing

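Of 232 comparisons of a main result with an alternative (the log2FC and call of each of the 9 genes, the counts of genes called, and the 4 ratios of related genes), 230 kept their side of the threshold or, for values without one, stayed within the spread or within 1.5 times. The exceptions were Sparc, which was called only without NT replicate 1 (log2FC -0.27, range -0.27 to -0.084 over the cultures left out, adjusted p 0.0062 to 0.51 over all alternatives), and Chrdl1, which lost its call without NT replicate 3 (log2FC -0.18, range -0.28 to -0.18, adjusted p 0.014 to 0.072). The cause was not tested. The log2FC of Thbs2 lay between 1.28 and 1.34 over 14 alternatives, that of Thbs1 between -0.64 and -0.36, that of Sulf1 between -0.67 and -0.56, that of Sparcl1 between 0.33 and 0.37 and that of Sulf2 between 0.20 and 0.28, and these 5 kept their calls. Gpc4 (-0.07 to 0.10) and Gpc6 (-0.10 to 0.03) were called under no alternative and, unlike the 7 other genes, changed sign under some. Same-numbered KE and NT cultures deviated together by r of 0.06 to 0.07 across genes, under the 0.1 required to treat them as pairs, although every culture correlated best with its own number. With the replicate block, 8046 genes were called in place of 7844, of which 7669 in both fits, and no call of the 9 genes changed. For the counts of the gene lists, 237 of 252 comparisons stayed within 1.5 times. Over the alternatives, the relatives had 1 to 3 genes higher and 4 to 7 lower, and the receptors 1 to 3 higher and 3 to 5 lower. With approximately 24500000 to 34100000 reads per culture, depth limits mainly the genes of low level, such as Thbs4, Spock1 and Gpc5.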
